A study of Mus musculus with 40 samples.

Results

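The liver loci described here lie at Srebf1, Srebf2 and Insig2, 3 genes of the sterol-sensing machinery, and were measured in mice whose dams and who themselves were fed a low-fat (LF) or a high-fat (HF) diet. Members were all CpGs of the deposited table that fall in 3 windows of the mouse build mm9, and 62 of 300 CpGs did so, 24 at Srebf1, 15 at Srebf2 and 23 at Insig2. Within the windows every CpG was taken, whatever its level. The study had picked its amplified loci from its gene expression results. It named the products of Srebf1 and Srebf2 as candidates because of the genes they act on. Srebf2 expression was not detected there, and no significant diet effect on Srebf1 expression was found. After correction for multiple testing, the paper reported no significant methylation difference between groups at its amplified loci.

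The animals were 9-week-old male C57BL/6 mice (C57BL/6J in the study's methods) in 4 groups, written with the maternal diet first. LL mice had an LF dam and an LF diet after weaning, HL mice an HF dam and an LF diet, LH mice an LF dam and an HF diet, and HH mice an HF dam and an HF diet. The labels list 10 animals per group, and 39 of the 40 had values, since the counts used here hold none for HL replicate 1. Liver DNA was treated with bisulfite, which turns unmethylated cytosine into a base read as T, and chosen loci were amplified and sequenced in one barcoded pool.

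The sterol regulatory element binding proteins are membrane-bound transcription factors that are cut and released when the cell needs lipid. The Srebf1 product mainly drives genes of fatty acid and triglyceride synthesis, and the Srebf2 product mainly drives genes of cholesterol synthesis and uptake. Insig2 encodes a protein of the endoplasmic reticulum that, in the presence of sterols, retains the precursors there and so keeps them from being cut. In the liver this circuit is known for matching lipid synthesis to feeding.

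The amplified sequences are shown because they place every CpG that was read. Genomic bases are lower case with each CpG in capitals, 5′ to 3′, from mm9 (NCBIM37). The Srebf1 amplicon spanned 189 bases at chr11:60033831-60034019 and is given on the minus strand, that of the gene. In GENCODE M1 it covered the end of the first coding exon of the transcripts that start at 60034106 and the adjoining part of the intron. Another annotated Srebf1 transcript starts at 60036083, outside the amplicon. The Srebf1 levels given here describe only the stretch that was read. Which Srebf1 product they bear on was not tested. The Srebf2 amplicon spanned 188 bases at chr15:81977418-81977605 on the plus strand and lay upstream of the annotated gene start at 81977696.
Srebf1 amplicon: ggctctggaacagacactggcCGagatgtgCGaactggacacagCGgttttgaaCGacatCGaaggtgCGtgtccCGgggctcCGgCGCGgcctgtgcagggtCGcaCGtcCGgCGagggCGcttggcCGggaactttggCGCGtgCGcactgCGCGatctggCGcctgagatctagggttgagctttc
Srebf2 amplicon: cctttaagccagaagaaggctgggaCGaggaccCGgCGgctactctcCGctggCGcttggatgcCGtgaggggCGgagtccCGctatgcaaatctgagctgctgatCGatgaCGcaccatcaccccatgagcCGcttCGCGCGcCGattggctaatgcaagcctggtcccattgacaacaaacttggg

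The Insig2 amplicon spanned 266 bases at chr1:123224256-123224521, and its CpGs all lay in the 5′ untranslated part of the first exon of a transcript that starts at 123224601 on the minus strand. Longer Insig2 transcripts have an intron there. Other annotated Insig2 transcripts start inside the amplicon, between 123224259 and 123224370. The bisulfite primers, which read the converted plus strand, are given to define the locus, together with 30 bases at chr1:123224470-123224499 (plus strand) that hold CpGs 21, 22 and 23, of which the first and second had the highest levels of the locus.
Insig2 forward primer: aaataagtttatttgagttttgtt
Insig2 reverse primer: aaacaaaatccccacctcct
Insig2 CpGs 21 to 23: gacttcCGgtgtgcCGggcactcCGggctg

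All 3 amplicons were rich in CpGs. Srebf1 held 22 CpGs in its 189 bases, or 11.6 per 100 bases, with a GC content of 65.6% and an observed to expected CpG ratio of 1.11. The comparison set was 32851 RefSeq promoters (build GRCm38.p6), 7 of them of these 3 genes, each cut to its first bases at the length of the amplicon. The cut windows were not matched to the amplicons in distance from a transcript start. Of these windows, 6.05% held as many CpGs. Srebf2 held 7.98 CpGs per 100 bases at 60.6% GC, a count reached by 15.5% of promoter windows. Insig2 held 8.65 CpGs per 100 bases at 69.5% GC, a count reached by 16.1% of windows.

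Motifs were searched on both strands of each amplicon. The GC box GGGCGG, known as an Sp1 site, matched once in Srebf2, over CpG 7. It also matched once on the minus strand of Insig2, over CpG 10 and 1 base of CpG 11. It was in 22.4% of promoter windows of the Srebf2 length and 33.9% of those of the Insig2 length. The letters CCAAT, bound by NF-Y, matched once in Srebf2 on the opposite strand, against 26.4% of windows. The E-box CANNTG matched once, in Insig2, against 68.5% of windows. The letters TCACCCCAC, from the sterol regulatory element of the LDL receptor gene, matched in none of the 3 amplicons, and 0.335% of windows of the Srebf2 length held them. The shorter TCACCCCA, searched after the sequence had been seen, matched once in Srebf2, between CpGs 10 and 11, and was in 1.0015% of windows. Srebf1 held none of these motifs. These matches are descriptions of letters only.

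CpGs were kept for testing when they had at least 10 reads in at least 36 animals, which left 253 CpGs at 19 loci in the series. All 15 Srebf2 and all 23 Insig2 CpGs passed, and 22 of 24 Srebf1 CpGs did. Insig2 had no value in HH replicate 1, so HH counted 9 animals there. Methylation is given as the percent of reads at a CpG that were read as methylated, and the locus mean is the mean of its tested CpGs in an animal. As a check of the assay, the imprinted loci Peg3 and Plagl1, where one parental copy is methylated, read 46.8% ± 3.08 and 51.2% ± 4.09 (SD, n = 39).

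Each of the 3 sterol loci was nearly unmethylated in every animal. Srebf2 averaged 0.696% ± 0.120 (SD, n = 39), Srebf1 0.736% ± 0.0732 (SD, n = 39) and Insig2 0.826% ± 0.106 (SD, n = 38). Counted from the lowest of the 19 loci they took ranks 2, 3 and 7. Srebf2 was above Srebf1 where only CpGs at the doubled depth described further on were used (0.730% and 0.708%). Over animals the locus mean ran from 0.427% to 1.03% at Srebf2, from 0.608% to 0.924% at Srebf1 and from 0.641% to 1.03% at Insig2. The 3 ranges overlapped. Within animals, Srebf2 was below Srebf1 in 26 of 39 mice, Srebf1 below Insig2 in 28 of 38, and Srebf2 below Insig2 in 32 of 38.

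The neighbours in this order were close. Nr1h2 stood 0.00963 percentage points below Srebf2, while the SD over animals of the difference between them was 0.154 points. Srebf1 stood 0.0400 points above Srebf2, with an SD of the difference of 0.133 points. Pck2 stood 0.0173 points above Srebf1, with an SD of 0.138 points, and Nfkb1 stood 0.0135 points below Insig2, with an SD of 0.144 points. None of these steps exceeded the spread between animals. Cytosines left unconverted are also read as methylated, and no cytosine outside CpGs was among the values analysed here, so their share in these levels was not tested.

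**Figure D1:**
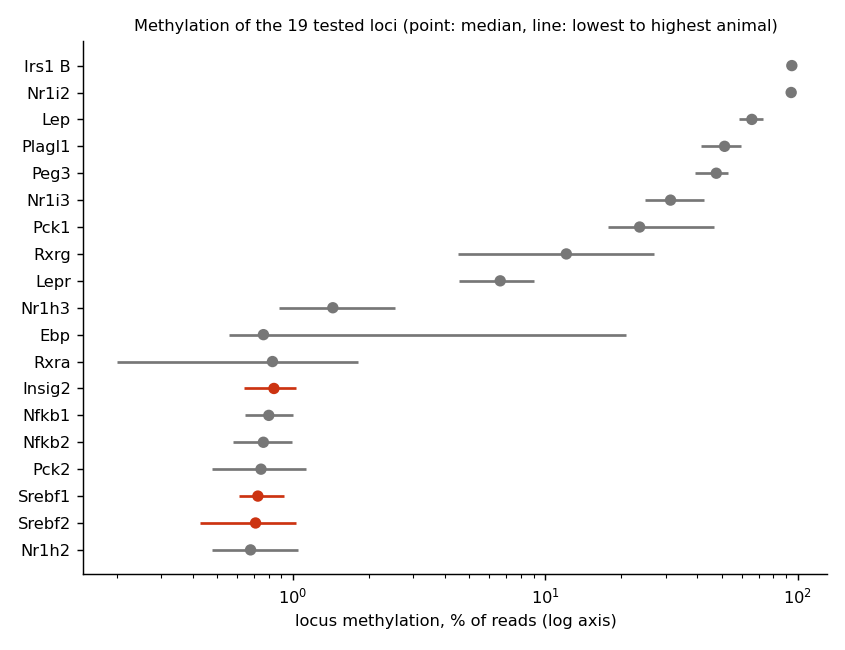
Methylation of the 19 tested loci as percent of reads on a log axis, with points for the median animal and lines from the lowest to the highest animal. Srebf1, Srebf2 and Insig2, in red, all stay near 1% or below, with medians of 0.726%, 0.710% and 0.840%.

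Single CpGs also stayed near 1% or below in their means. At Srebf1 the 22 CpG means ran from 0.492% to 1.005%, a 2.04-fold range. CpG 5 (chr11:60033873, intron) was highest at 1.005% ± 0.240 (SD, n = 39), followed by CpG 23 (chr11:60033998, coding exon) at 0.903% ± 0.382 (SD, n = 39). CpG 10 (chr11:60033905, intron) was lowest at 0.492% ± 0.172 (SD, n = 39). The 5 tested CpGs of the coding exon averaged 0.667% and the 17 of the intron 0.757%, and both sets overlapped, from 0.495% to 0.903% and from 0.492% to 1.005%.

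At Srebf2 the 15 CpG means ran from 0.427% to 0.959%, a 2.25-fold range. CpG 11 (chr15:81977550) was highest at 0.959% ± 0.560 (SD, n = 39), followed by CpG 6 (chr15:81977482) at 0.879% ± 0.432 (SD, n = 39). CpG 3 (chr15:81977454) was lowest at 0.427% ± 0.209 (SD, n = 39). No Srebf2 CpG reached a mean of 1%, and all lay between 134 and 253 bases upstream of the gene start. CpG 7, inside the GC box, averaged 0.614%.

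At Insig2 the 23 CpG means ran from 0.577% to 1.10%, a 1.91-fold range. CpG 21 (chr1:123224476) was highest at 1.10% ± 0.762 (SD, n = 38), with CpG 22 (chr1:123224484) beside it, also at 1.10% ± 0.536 (SD, n = 38). CpG 20 (chr1:123224459), close by on the other side, was lowest at 0.577% ± 0.391 (SD, n = 38). The highest single value of any member in any animal was 3.57%, at Insig2 CpG 21 in an HH mouse. CpG 10, inside the GC box, and CpG 11, at its edge, averaged 0.876% and 0.717%.

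**Figure D2:**
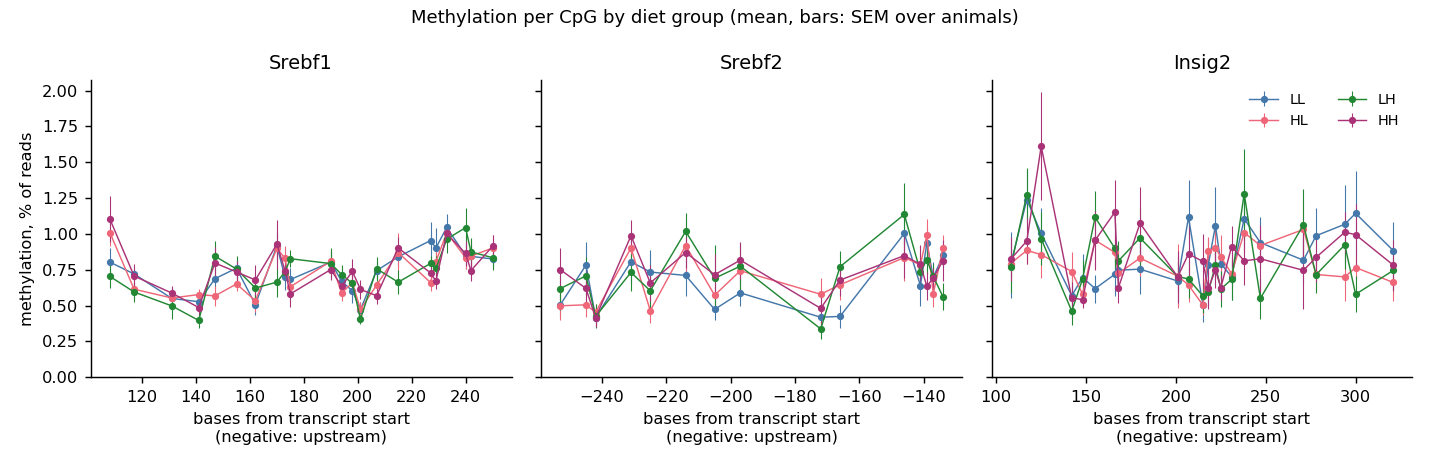
Mean methylation per CpG in percent of reads (bars, SEM over animals) against the distance in bases from a transcript start, by diet group. The starts used were 60034106 at Srebf1, 81977696 at Srebf2 and 123224601 at Insig2. Group lines cross repeatedly at all 3 loci, and the means over all animals stay between 0.427% and 1.10%.

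The order of CpGs within a locus was partly shared between groups. Across the CpGs of Srebf1, the correlation between the mean profiles of any 2 groups ran from 0.482 to 0.827. It ran from 0.495 to 0.649 at Srebf2 and from 0.200 to 0.571 at Insig2. These are descriptions across CpGs that share libraries and base composition. Across animals, by contrast, CpGs of a locus hardly moved together. The median correlation over pairs of CpGs was 0.0371 at Srebf1 (231 pairs), 0.0253 at Srebf2 (105 pairs) and -0.0158 at Insig2 (253 pairs).

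Levels were also grouped by the base beside the CpG. Over all 60 tested members, the 25 CpGs preceded by C on the amplified strand averaged 0.850%, the 24 preceded by G 0.717%, the 4 preceded by T 0.676% and the 7 preceded by A 0.640%. Relative to the mean of their locus these were 0.0732, -0.0334, -0.0404 and -0.124 percentage points. The sets overlapped, since CpGs after C ran from 0.587% to 1.10% and those after G from 0.427% to 1.005%. This was a grouping made after the sequences were seen and carries no test.

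Depth was high but rose in a step from the outer to the inner CpGs of each amplicon. Per animal, the median reads per CpG ran from 17848 to 198375 at Srebf1, from 548 to 13324 at Srebf2 and from 265 to 18869 at Insig2. At Srebf1, 17 inner CpGs had a median of 52062 reads and the 5 outer ones 26005, a ratio of 2.00. Srebf2 had 12 CpGs at 3951 reads and 3 at 1969, and Insig2 had 6 at 12980 and 17 at 6488. The medians per animal therefore fell on doubled CpGs at Srebf1 and Srebf2 but on CpGs of the lower depth at Insig2. The doubled CpGs were exactly those that reads of 147 to 153 bases from both ends of the Srebf1 amplicon would share. The matching lengths were 145 to 151 bases at Srebf2 and 146 to 151 at Insig2. Summed over animals, methylated reads were an even number at every doubled CpG, as with 12370 at Srebf1 CpG 10. At the lower depth both kinds occurred, as with 603 at Srebf2 CpG 2 and 364 at Srebf2 CpG 3. Total reads were even at every doubled Srebf2 CpG, but not at every one of Srebf1 and Insig2. Whether 1 molecule was counted from both ends at the doubled CpGs was not tested. Levels at doubled and single depth were 0.708% and 0.831% at Srebf1, 0.730% and 0.560% at Srebf2 and 0.738% and 0.857% at Insig2.

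**Figure D3:**
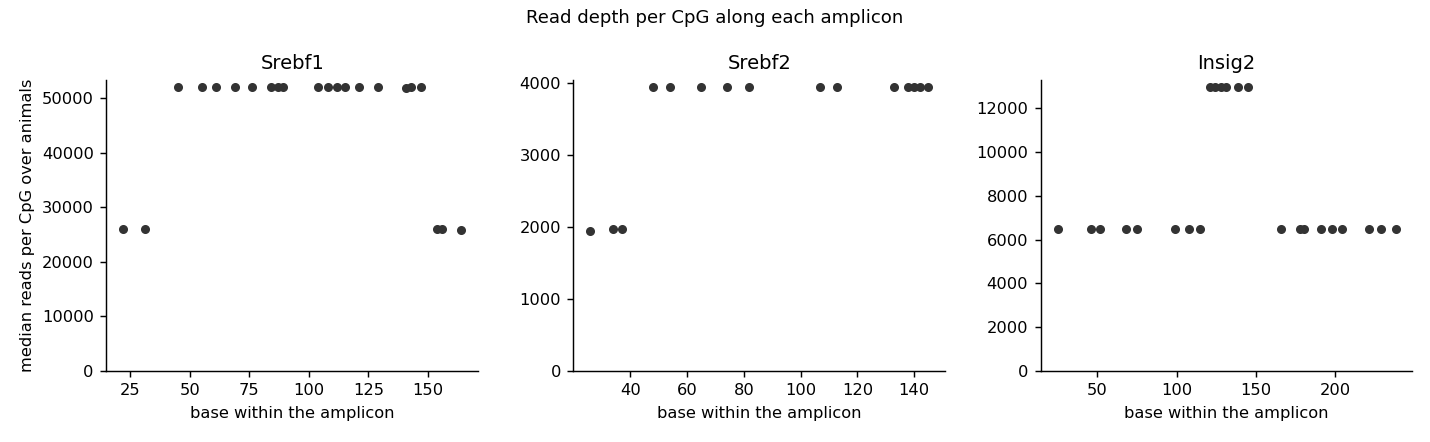
Median reads per CpG over animals against the base within each amplicon. Depth steps from outer to inner CpGs, from 26005 to 52062 reads at Srebf1, from 1969 to 3951 at Srebf2 and from 6488 to 12980 at Insig2. The outer CpGs lie toward both ends at Srebf1 and Insig2, and toward the start only at Srebf2.

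Pooled over animals, Srebf1 CpG 10 had 12370 methylated of 2446820 reads, or 0.506% with a 95% Wilson interval of 0.497 to 0.515%. Srebf2 CpG 3 had 364 of 86217 reads, or 0.422% with an interval of 0.381 to 0.468%. Insig2 CpG 21 had 3036 of 297151 reads, or 1.02% with an interval of 0.986 to 1.06%. These intervals cover counting error only, since reads after PCR are not independent molecules. The variance between animals at a CpG was a median of 36.8 times that of binomial counting at Srebf1, 4.86 times at Srebf2 and 15.4 times at Insig2. Reads at doubled CpGs, such as Srebf1 CpG 10, entered the intervals and these ratios as separate counts. Had single molecules been counted from both ends there, which was not tested, the interval would be too narrow and the ratio too high. The lowest ratios were 15.7 at Srebf1 and 8.29 at Insig2, while at Srebf2 CpG 3 the ratio was only 1.40, so that its spread was close to counting error. Read depth at the 3 loci did not pass the threshold between groups in any of 12 comparisons (exact permutation tests of log10 reads, smallest adjusted p = 0.714).

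The first comparison asked whether the maternal HF diet left a mark in mice weaned to LF (HL against LL). No difference at the 3 loci exceeded the spread between animals. At Srebf1, LL mice ran from 0.669% to 0.828% (median 0.747%) and HL mice from 0.608% to 0.845% (median 0.721%), with a difference of -0.0199 percentage points (95% interval -0.0803 to 0.0405). At Srebf2, LL mice ran from 0.427% to 0.771% (median 0.727%) and HL mice from 0.545% to 0.812% (median 0.710%), with a difference of 0.0261 points (-0.0786 to 0.131). At Insig2, LL mice ran from 0.684% to 1.02% (median 0.840%) and HL mice from 0.669% to 0.962% (median 0.811%), with a difference of -0.0637 points (-0.173 to 0.0455). The groups overlapped at every locus. By exact permutation tests adjusted over 19 loci, p was 0.855, 0.888 and 0.546 in that order.

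Single CpGs gave no more. Of the 60 members, 0 passed the adjusted threshold of 0.05 in HL against LL, as did 0% of the 253 CpGs tested and 0% of the 19 loci. By unadjusted p, 1 of 60 was under 0.05, against 14.6% of all CpGs, and 0 of the 3 loci, against 10.5% of loci. That CpG was Srebf1 CpG 7 (chr11:60033879), at 0.954% ± 0.407 (SD, n = 10) in LL and 0.661% ± 0.167 in the 9 HL mice. It was below the LL median in 8 of 9 HL mice, and its difference of -0.293 points (-0.601 to 0.0145) had an exact permutation p = 0.0480 and an adjusted p = 0.329. Srebf1, Srebf2 and Insig2 had 11 of 22, 10 of 15 and 10 of 23 CpGs higher in HL.

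**Figure D4:**
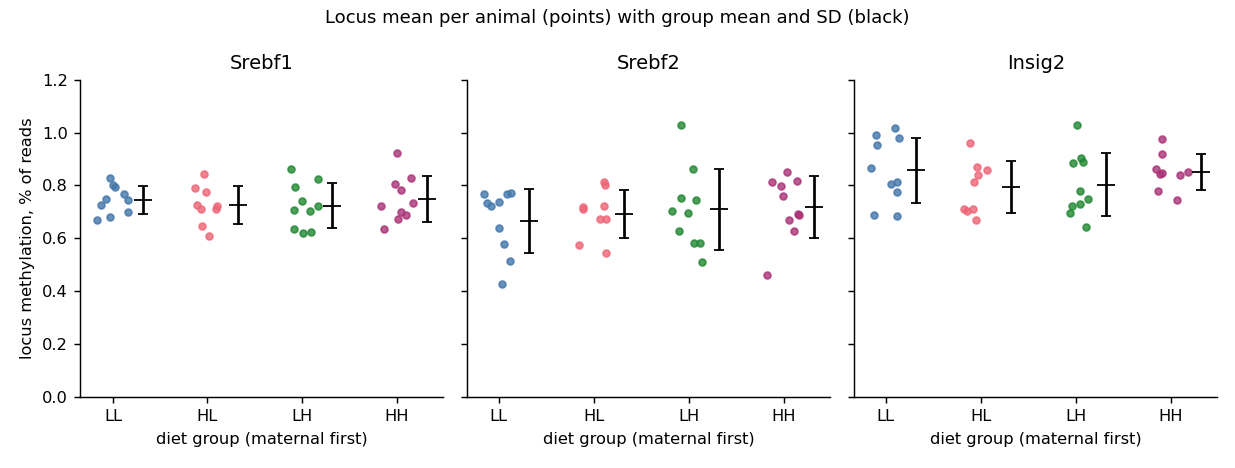
Locus methylation per animal in percent of reads by diet group, with the group mean and SD in black. The groups overlap at each locus, and group means lie between 0.723% and 0.749% at Srebf1, 0.666% and 0.718% at Srebf2 and 0.793% and 0.857% at Insig2.

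The second comparison asked the same in mice weaned to HF (HH against LH). At Srebf1, LH mice ran from 0.618% to 0.863% (median 0.715%) and HH mice from 0.635% to 0.924% (median 0.729%), and HH was 0.0264 points higher (-0.0541 to 0.107, adjusted p = 0.737). At Srebf2, LH mice ran from 0.508% to 1.03% (median 0.700%) and HH mice from 0.463% to 0.853% (median 0.726%), with a difference of 0.00912 points (-0.118 to 0.136, adjusted p = 0.931). The highest LH value (replicate 3) and the lowest HH value (replicate 8) came from the shallowest Srebf2 libraries, at 692 and 548 reads. These are medians over CpGs and fall on those of doubled depth. The difference was 0.0445 points without the former and 0.0375 without the latter, and 0.0690 with a minimum of 1000 reads, none past the threshold. That minimum also cut the members tested to 57, and left only the CpGs at doubled depth at Srebf2. At Insig2, LH mice ran from 0.641% to 1.03% (median 0.763%) and the 9 HH mice from 0.746% to 0.976% (median 0.846%), with a difference of 0.0491 points (-0.0466 to 0.145) and an adjusted exact permutation p = 0.690. The lowest LH value (replicate 8) had 265 reads, and without it the difference was 0.0312 points.

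In HH against LH, 0 of 60 members passed the adjusted threshold, as did 0% of all CpGs and 0% of loci. By unadjusted p, 3 of 60 were under 0.05, against 2.77% of all CpGs, and 0 of the 3 loci, against 0% of loci. All 3 CpGs were in Srebf1. CpG 10, the lowest of its locus, was 0.405% ± 0.105 in LH and 0.613% ± 0.200 in HH (SD, n = 10 each), a difference of 0.208 points (0.0578 to 0.359, p = 0.00937, adjusted p = 0.859). HH was above the LH median in 8 of 10 mice. CpGs 14 and 23 differed by -0.246 and 0.400 points, in opposite directions, each with an adjusted p = 0.859. CpG 14 is named here because its value was seen.

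The third comparison asked about the diet after weaning in offspring of LF dams (LH against LL). The difference was -0.0230 points at Srebf1 (-0.0894 to 0.0435), 0.0431 at Srebf2 (-0.0860 to 0.172) and -0.0548 at Insig2 (-0.169 to 0.0594). The adjusted p was 0.850, 0.850 and 0.776 in that order, and the groups overlapped at each locus. Without LH replicate 3 (692 reads) the Srebf2 difference was 0.00777 points, and without LH replicate 8 (265 reads) the Insig2 difference was -0.0368 points. At the CpG level 0 of 60 members passed the adjusted threshold, against 0% of all CpGs and 0% of loci. By unadjusted p, 3 of 60 were under 0.05, against 7.91% of all CpGs, and 0 of the 3 loci, against 5.26% of loci.

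The smallest p in LH against LL was at Srebf2 CpG 10 (chr15:81977530), one of the CpGs beside the TCACCCCA match. LL mice ran from 0% to 0.895% (median 0.381%) and LH mice from 0.289% to 1.40% (median 0.736%). LH was above the LL median in 9 of 10 mice, with a difference of 0.347 points (0.0626 to 0.631, p = 0.0195, adjusted p = 0.572). Srebf2 CpG 15, named after its value was seen, went the other way by -0.287 points, with all 10 LH mice below the LL median (adjusted p = 0.590). Insig2 CpG 18, also named after its value was seen, differed by 0.498 points (adjusted p = 0.572).

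The fourth comparison asked about the diet after weaning in offspring of HF dams (HH against HL). HH was 0.0233 points higher at Srebf1 (-0.0540 to 0.101), 0.0261 points higher at Srebf2 (-0.0756 to 0.128) and 0.0581 points higher at Insig2 (-0.0270 to 0.143). The adjusted exact permutation p was 0.708 at each locus. Without HH replicate 8 (548 reads) the Srebf2 difference was 0.0545 points, still short of the threshold. Of 60 members, 0 passed the adjusted threshold, against 0% of all CpGs, while 5.26% of loci (1 of 19, none of these 3) did. By unadjusted p, 1 of 60 was under 0.05, against 12.6% of all CpGs, and 0 of the 3 loci, against 15.8% of loci.

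That CpG was Srebf2 CpG 13 (chr15:81977557). The 9 HL mice ran from 0.503% to 1.51% (median 0.998%) and HH mice from 0% to 1.02% (median 0.738%). HH was below the HL median in 9 of 10 mice, with a difference of -0.356 points (-0.670 to -0.0432), an exact permutation p = 0.0279 and an adjusted p = 0.360. Across the locus, 10 of 15 Srebf2 CpGs had a difference above 0, beside 174 of all 253 CpGs, and CpG 13 was below 0. The comparisons above share groups, and their values are not independent of each other.

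Both diets were then fitted in linear models over all 4 groups. The interaction, which asks whether the maternal effect differed between weaning diets, was 0.0463 points at Srebf1 (-0.0516 to 0.144), -0.0170 at Srebf2 (-0.177 to 0.143) and 0.113 at Insig2 (-0.0271 to 0.253). Its adjusted p was 0.634, 0.986 and 0.634. The Insig2 value combined a maternal difference of -0.0637 points in LF-weaned mice with one of 0.0491 in HF-weaned mice. At the CpG level 0 of 60 members passed the adjusted threshold for the interaction, against 0% of all CpGs and 0% of loci. By unadjusted p, 0 of 60 were under 0.05, against 6.72% of all CpGs, and 0 of the 3 loci, against 5.26% of loci. Srebf1 CpG 10 came closest, at 0.207 points (-0.00111 to 0.414, p = 0.0512, adjusted p = 0.719).

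The maternal diet over both weaning diets gave HF minus LF differences of 0.00389 points at Srebf1 (-0.0450 to 0.0527), 0.0174 at Srebf2 (-0.0613 to 0.0961) and -0.00732 at Insig2 (-0.0788 to 0.0642). Each adjusted p was 0.873. Here 0 of 60 members passed the adjusted threshold, against 0% of all CpGs and 0% of loci. By unadjusted p, 3 of 60 were under 0.05, all in Srebf1, against 11.9% of all CpGs, and 0 of the 3 loci, against 10.5% of loci. Srebf1 CpG 23, in the coding exon, averaged 1.06% under HF dams and 0.754% under LF dams, a difference of 0.306 points (0.0726 to 0.540, p = 0.0116, adjusted p = 0.261). By group it ran from 0.357% to 1.35% in LL, 0.646% to 1.30% in HL, 0.373% to 1.21% in LH and 0.391% to 1.88% in HH, so the groups overlapped. Srebf1 CpGs 7 and 9, the latter named after its value was seen, were lower under HF dams by -0.176 and -0.146 points.

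The diet after weaning, over both maternal diets, gave differences of -0.000432 points at Srebf1 (-0.0493 to 0.0484), 0.0348 at Srebf2 (-0.0439 to 0.114) and -0.00132 at Insig2 (-0.0727 to 0.0701). The adjusted p was 0.986, 0.807 and 0.986. Of 60 members, 0 passed the adjusted threshold, whereas 1.19% of all CpGs (3 of 253) and 5.26% of loci (1 of 19) did. By unadjusted p, 3 of 60 were under 0.05, against 10.7% of all CpGs, and 0 of the 3 loci, against 10.5% of loci. Srebf1 CpG 20 (chr11:60033965, coding exon) averaged 0.442% on HF and 0.551% on LF, a difference of -0.111 points (-0.209 to -0.0134, p = 0.0270, adjusted p = 0.413). The other members under 0.05 were Srebf1 CpG 19, named after its value was seen, at 0.192 points and Srebf2 CpG 13 at -0.233 points.

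**Figure D5:**
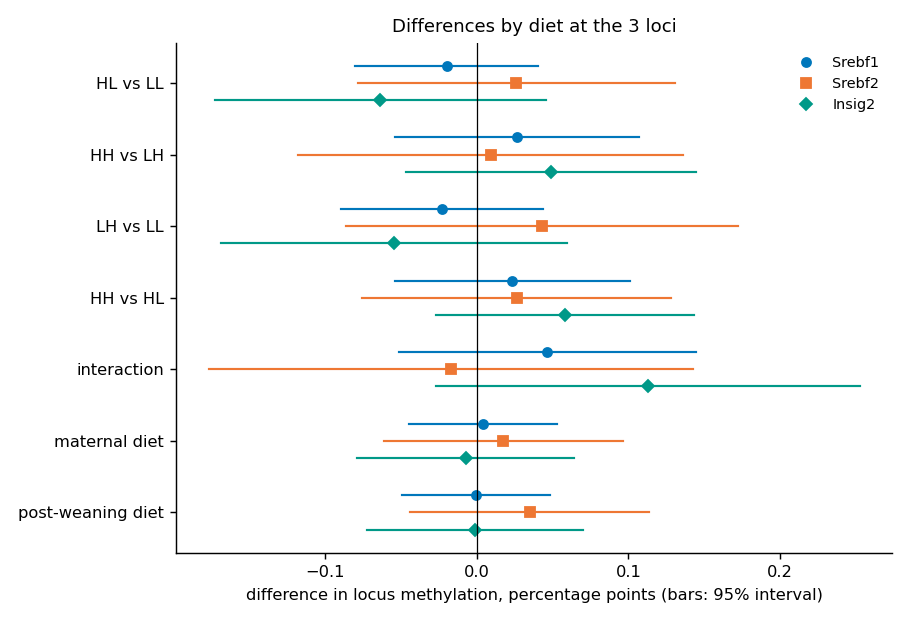
Differences in locus methylation in percentage points, with 95% intervals, at Srebf1, Srebf2 and Insig2 in the 4 pairwise comparisons (first group minus second) and for the model terms. The terms for either diet are high fat minus low fat. The interaction is the maternal difference in HF-weaned mice minus that in LF-weaned mice. Every interval includes 0, and the widest, the Srebf2 interaction, runs from -0.177 to 0.143.

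The 95% intervals of the pairwise locus differences reached from -0.173 points (Insig2, HL against LL) to 0.172 points (Srebf2, LH against LL). Those of the terms for either diet reached from -0.0788 points (Insig2, maternal diet) to 0.114 points (Srebf2, diet after weaning), against locus levels of 0.696% to 0.826%.

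The other amplified loci fixed for comparison belong to sterol metabolism. Ebp encodes a sterol isomerase of cholesterol synthesis, Nr1h2 and Nr1h3 the liver X receptors that respond to oxysterols, and Rxra their dimer partner. Nr1h2 averaged 0.687% ± 0.105 (SD, n = 39), Rxra 0.881% ± 0.329 (SD, n = 38) and Nr1h3 1.57% ± 0.438 (SD, n = 38). Ebp averaged 1.30% ± 3.21 (SD, n = 39) with a median of 0.763%, since 1 HH animal stood at 20.8%. Of their 54 CpGs, 0 passed the adjusted threshold in each of the 7 comparisons. By unadjusted p the count was 6 in HL against LL (4 higher, 2 lower), 2 in HH against LH (1 and 1), 5 in LH against LL (3 and 2) and 5 in HH against HL (2 and 3). It was 1 for the interaction, 5 for the maternal diet and 3 for the diet after weaning. In the 4 pairwise comparisons, in that order, the medians of their differences were 0.0329, 0.141, 0.0564 and 0.122 points, beside 0.00169, 0.0384, -0.0107 and 0.0311 over the 60 members and -0.0367, 0.0399, -0.0103 and 0.148 over all 253 CpGs.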

How the data were processed

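Bisulfite-treated liver DNA of 40 mice was amplified at 22 loci, barcoded and sequenced, and 39 have values here. Per the labels, the authors aligned reads and called methylation with Bismark on mm9. The Bismark version is not given in the sources used here. The deposited table holds, for every CpG and each of these 39 animals, 2 read counts, those methylated and those in total. Every total above 0 was at least 100 reads, and 0 columns were left unused. A second deposited table, of methylated fractions, was not used.

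Percent methylation was computed per CpG and animal, and averaged over the tested CpGs of a locus. As in the study's own filter, a CpG needed 10 or more reads in 36 or more animals. Where both groups had 10 values Student's t-test was run, and elsewhere group means were permuted exactly (2-sided, double the smaller tail). Within each comparison, Benjamini-Hochberg adjustment covered all 253 CpGs or all 19 loci, at a threshold of 0.05. Model terms came from linear models of the 4 groups (F tests). The 95% intervals come from the pooled variance. Replicates are single animals. The study's methods split the males of a cage between weaning diets, but the labels name no cage or litter, and p-values treat animals as independent. No pair of libraries was a duplicate, with a mean absolute difference of 0.808 points per CpG in the closest.

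The CpGs named are, in each locus, the 2 with the highest and the 1 with the lowest mean, in each comparison the member with the smallest p, and any past the adjusted threshold. The members, gene lists and motifs were chosen with earlier results of these data known. Alternatives were an exact permutation test throughout, the Wilcoxon rank-sum test, a quasi-binomial model, limma 3.58.1 on log2 ratios with 1 added to each count, coverage floors of 1 and 1000 reads, only CpGs read in every animal, pooled reads, adjustment over 4 comparisons, runs of animal numbers as a block, and leaving out each animal. A split by read depth was added after seeing the data. The tests were checked on simulated data with set shifts much larger than any difference at the members. That check does not show whether differences as small as those at the members would be found. Python 3.11.15, scipy 1.17.1, statsmodels 0.14.6 and R 4.3.3 were used.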

Additional observations from a re-analysis of the deposited data

Results flagged for a closer look

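In 3 of 64 groups examined, over the locus means and the named CpGs, 1 animal stood far from the others of its group by Dixon's criterion. Chance alone gives about 1 in 20 such groups. At Insig2 CpG 20, LL replicate 1 read 1.78% where the next LL animal read 0.923% and the other LL animals averaged 0.435%, on 4891 reads. At the same CpG, LH replicate 6 read 1.26% where the next LH animal read 0.758% and the others averaged 0.373%, on 5726 reads. At Srebf1 CpG 20, HL replicate 9 read 0.860% where the next HL animal read 0.620% and the others averaged 0.542%, on 80712 reads. None of the locus means held such an animal, and no member passed the adjusted threshold for the interaction.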

How the results depend on the processing

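The count of members past the adjusted threshold was 0 under each of the 8 alternatives that recounted it in the 4 pairwise comparisons and the 4 that did so for the model terms, and with any animal left out. The floor of 1 read, in both sets, could not change a result, since every total above 0 was at least 100 reads. No locus difference passed the adjusted threshold (lowest adjusted p = 0.310, or 0.270 with an animal left out). Of 194 locus differences recomputed, 114 took another value, and 96 of these kept their sign. The following turned. The quasi-binomial log odds were -0.0454 (Srebf2, HL vs LL), -0.00177 (Srebf1, HH vs LH), 0.0171 (Srebf1, LH vs LL) and -0.0195 (Srebf2, LH vs LL). A minimum of 1000 reads, which left only CpGs at doubled depth at Srebf2, gave 0.0158 points (Srebf2, interaction) and 0.00939 (Insig2, post-weaning diet). The Srebf1 maternal difference was -0.0038 by limma (log2) and -0.00130 points with pooled reads. Within runs of neighbouring animal numbers, which the labels do not call litters, Srebf1 in LH vs LL was 0.00379 points over 10 animals. Using only CpGs at the lower depth gave 0.0327 (Srebf1) and -0.0825 (Srebf2) in HL vs LL, 0.00194 (Srebf1) in LH vs LL, 0.0941 (Srebf2, interaction), -0.0341 (Srebf2, maternal diet), and 0.0132 (Srebf1) and 0.0317 (Insig2) for the post-weaning diet. It moved the level to 0.831% at Srebf1 and 0.560% at Srebf2. Only CpGs at the doubled depth gave -0.0188 (Insig2, HH vs HL) and -0.00811 (Srebf1, maternal diet). The cause was not tested. Leaving out 1 animal turned the sign in 7 results, whose ranges were -0.0175 to 0.00351 (Insig2) and -0.00646 to 0.0116 (Srebf1) for the maternal diet, -0.0127 to 0.00939 (Insig2) and -0.0102 to 0.00602 (Srebf1) for the post-weaning diet, and, for Srebf2, -0.0132 to 0.0445 (HH vs LH), -0.000468 to 0.0445 (HL vs LL) and -0.0393 to 0.0184 (interaction). Counts of members with unadjusted p under 0.05 moved from 1 to 0 (Wilcoxon) and 5 (quasi-binomial) in HL vs LL, from 3 to 5 (quasi-binomial) in HH vs LH, from 3 to 5 (limma) and 1 (1000 reads) in LH vs LL, and from 1 to 2 (Wilcoxon, quasi-binomial) and 0 (1000 reads) in HH vs HL, and ran from 0 to 6 with an animal left out. No paired analysis was possible because the replicate numbers only follow the accession order and the labels name no cage or litter. The runs of animal numbers are the nearest substitute.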

Other observations

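Of the 2 Srebf1 CpGs left untested, CpG 1 (chr11:60033830) had reads in 3 animals, with 0 methylated of 354 reads, which allows a level of up to 0.847% by the limit of 3 counts (the 95% Wilson limit is 1.07%), and CpG 24 (chr11:60034020) had no value in any animal. Both lie 1 base outside the amplicon.

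Levels of the 3 loci were compared across animals, with the mean of 6 other loci of low methylation and with read depth, in 9 relations. Srebf1 and Srebf2 had Pearson's r = 0.118 (permutation p = 0.477) and Spearman's rho = 0.0923 (permutation p = 0.575), with n = 39. Srebf1 and Insig2 had r = 0.263 (permutation p = 0.109) and rho = 0.242 (permutation p = 0.144), with n = 38, and r = 0.194 without the 2 animals farthest from the median. Srebf2 and Insig2 had r = 0.0221 (permutation p = 0.895) and rho = 0.0883 (permutation p = 0.596). No relation passed the threshold after adjustment over the 9. The smallest unadjusted p was that of Srebf1 level with log10 reads, r = 0.375 (permutation p = 0.0186, adjusted p = 0.167) and rho = 0.316 (permutation p = 0.0490, adjusted p = 0.299). Within diet groups r was 0.370, and without the 2 animals farthest from the median depth it was 0.378.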
